A study of Mus musculus with 6 samples.

Results

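The CXC chemokine ligands are the genes of small secreted proteins that draw leukocytes into tissue, and 9 of them were chosen by gene symbol: Cxcl1, Cxcl2, Cxcl3, Cxcl9, Cxcl10, Cxcl11, Cxcl14, Cxcl16 and Pf4. Of these 9, 8 had a value in the deposited tables, which list 17067 genes. Cxcl11 was not analysed here. RefSeq annotates it as a transcribed pseudogene in build GRCm38.p6, whose sequence comes from the C57BL/6J strain. The levels were measured by RNA sequencing in macrophages of the inflamed colon, in 3 samples from Gsdmd-/- mice and 3 from wild-type (WT) mice. All mice were C57BL/6, 10 weeks old, and treated with dextran sulfate sodium (DSS), a polymer that injures the colon epithelium and causes colitis, so no sample is from an untreated colon. The cells were taken by flow sorting as CD45+CD11b+F4/80+, and the Gsdmd-/- mice lack gasdermin D, the pore-forming protein of pyroptosis, with no restriction to macrophages named in the labels. The labels do not say whether a sample is 1 mouse or a pool, so a p-value here sets a difference against the variation among these 6 samples alone, part or all of which may be technical.

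CXC chemokines are named after a pair of cysteines with 1 residue between them, and they signal through G protein-coupled receptors on leukocytes. Cxcl1, Cxcl2 and Cxcl3 act on Cxcr2 and recruit neutrophils, and their transcription is driven by NF-kB downstream of Toll-like receptors, interleukin-1 and interleukin-17. Cxcl9, Cxcl10 and Cxcl11 are induced by interferons and act on Cxcr3, which is carried by activated T cells and natural killer cells. Cxcl16 is made as a membrane-bound ligand of Cxcr6, Cxcl14 is a ligand found in epithelium and stroma, and Pf4, also called Cxcl4, is stored in platelets and is also made by macrophages.

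Levels are in FPKM, fragments per kilobase of transcript scaled to the mapped fragments of the library, which can be compared between genes. Sequencing depth, estimated from the steps of low values, was 20.3 to 20.5 M fragments in Gsdmd-/- and 20.1 to 20.5 M in WT samples. Gsdmd itself was 28.5, 29.0 and 29.7 FPKM in the Gsdmd-/- samples, against 97.7, 99.4 and 97.4 FPKM in the WT samples, so its transcript was lower but present. The sorting markers were present in both groups, with Ptprc (CD45) at 57.9 ± 2.5 FPKM in Gsdmd-/- and 92.4 ± 4.73 FPKM in WT samples (SD, n = 3 each). Itgam (CD11b) was at 91.3 ± 4.07 FPKM in Gsdmd-/- and 176.5 ± 3.24 FPKM in WT samples, and Adgre1 (F4/80) at 216 ± 5.67 FPKM in Gsdmd-/- and 291 ± 4.29 FPKM in WT samples. Differences were tested with limma on log2(FPKM + 1), and a gene is said to have risen or fallen in Gsdmd-/- samples where the Benjamini-Hochberg adjusted p over all 10005 tested genes was under 0.05. The pseudocount of 1 understates the change of genes at low levels. Of the tested genes 40.6% were called higher and 36.9% lower, 77.5% in all. Rescaled to TPM, so that every sample has the same sum, 25.0% were called higher and 51.0% lower, and the median log2 change of all genes moved by -0.20. Shorter transcripts tended to higher changes, and another scale, called adjusted below, takes out the smooth trend of the log2 changes on transcript length and GC content, which held 44.6% of their variance. On it 32.4% of 9852 genes were called higher and 30.3% lower. The sorting markers Ptprc, Itgam and Adgre1 fell, with log2 changes of -0.67, -0.94 and -0.43 as deposited. They were also called lower in TPM and on the adjusted scale. In bulk samples, fewer cells making a transcript and less of it per cell cannot be told apart.

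All 8 ligands passed the filter of 1 FPKM in at least 3 samples, and 7 were at or above it in all 3 WT samples. Cxcl14 reached it in 1 WT sample only. It passed through the Gsdmd-/- samples, so its call depends on the group where it is high. Of the 8, 4 were called higher (Cxcl1, Cxcl9, Cxcl14 and Pf4), 2 were called lower (Cxcl2 and Cxcl3), and Cxcl10 and Cxcl16 did not pass. The share called, 6 of 8 with Cxcl14 included, is close to the 77.5% of all tested genes. The number of calls thus says nothing particular about the family. The groups did not overlap for those same 6 ligands, beside 79.4% of all tested genes. The median log2 change of the 8 was 0.27 and their median absolute change was 0.53, beside 0.03 and 0.33 over all tested genes.

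Expression of the family was dominated by Cxcl10, a product of interferon stimulation. It ranked number 4 of all listed genes by mean FPKM in Gsdmd-/- samples and number 3 in WT samples. It made up 90.9% to 91.1% of the summed FPKM of the 8 ligands in Gsdmd-/- samples and 92.2% to 92.4% in WT samples. In Gsdmd-/- macrophages the order below Cxcl10 was Pf4, Cxcl16, Cxcl9, Cxcl2, Cxcl3, Cxcl1 and Cxcl14, and no neighbours in that order overlapped between samples. In WT macrophages it was Cxcl16, Pf4, Cxcl2, Cxcl9, Cxcl3, Cxcl1 and Cxcl14, and Cxcl2 and Cxcl9 overlapped. Thus 2 neighbouring pairs stood in the opposite order by mean deposited value, Pf4 above Cxcl16 and Cxcl9 above Cxcl2 in Gsdmd-/- samples. The order of Pf4 above Cxcl16 was not kept on the adjusted scale, where Pf4 changed by -0.06 and Cxcl16 by 0.18.

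**Figure D1:**
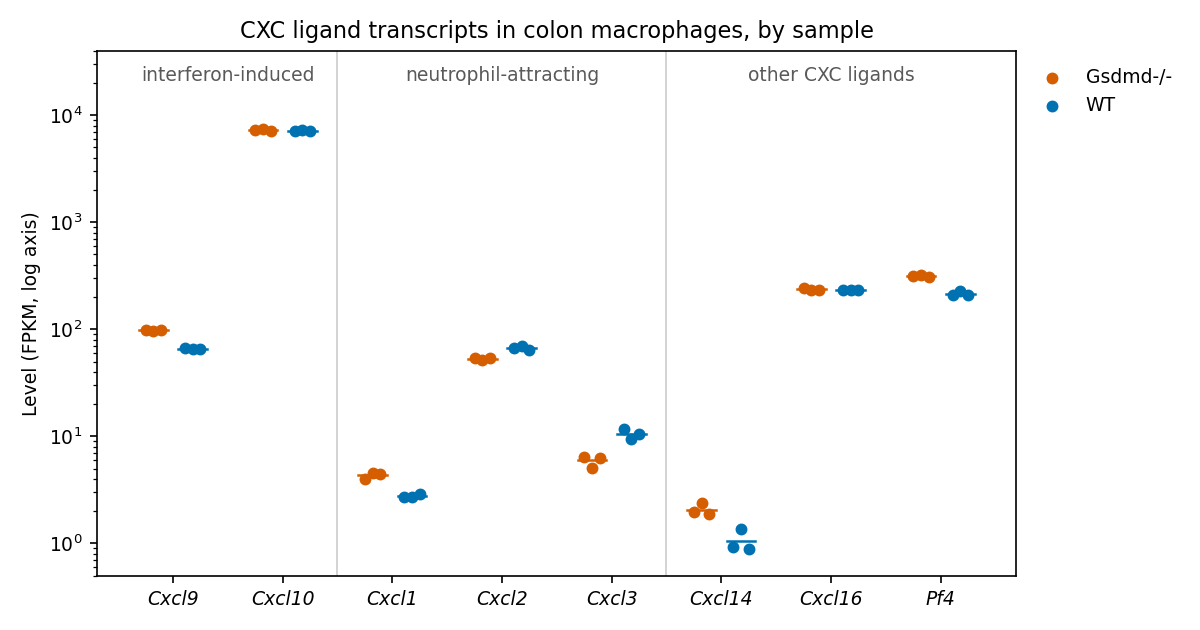
Level of each CXC ligand transcript in FPKM on a log axis, with 1 point per sample and a line at the mean of the 3 Gsdmd-/- (left) and 3 WT (right) samples. Cxcl10 lies near 7232 FPKM in Gsdmd-/- and 7185 FPKM in WT samples, Cxcl14 near 2.07 FPKM in Gsdmd-/- and 1.06 FPKM in WT samples, and Cxcl9 and Cxcl2 move in opposite directions.

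Among the interferon-induced ligands, Cxcl9 rose and Cxcl10 did not pass the test. Cxcl9 had 99.4, 96.3 and 99.5 FPKM in Gsdmd-/- samples, against 67.0, 65.9 and 65.2 FPKM in WT samples. Each Gsdmd-/- sample was above each WT sample. The mean was 1.49 times the WT mean, a log2 change of 0.57 (SE 0.030, limma adjusted p = 1.11e-08). This call was also made in TPM (0.35) and on the adjusted scale (0.91). Cxcl9 has a transcript of 2889 bases, and the tested genes of similar length, 2517 to 2948 bases, had a median log2 change of -0.12.

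Cxcl10 had 7260.5, 7358 and 7078 FPKM in Gsdmd-/- samples, against 7176, 7254 and 7126 FPKM in WT samples. The groups overlapped, with the lowest and the highest sample both in the Gsdmd-/- group. The log2 change was 0.01 (95% interval -0.04 to 0.06, limma adjusted p = 0.703), so a change beyond that interval was not seen on the deposited scale. Its sign depended on the scale. It was -0.21 in TPM, where it passed (adjusted p = 3.72e-09) and stood -0.04 from the median of all genes on that scale, and -0.12 on the adjusted scale, where it also passed (adjusted p = 0.000194). Art3, on the other strand, shares 133 exon bases with Cxcl10. Art3 was at 0.260 FPKM in Gsdmd-/- and 0.177 FPKM in WT samples.

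The relation of the 2 interferon-induced ligands differed between genotypes. Cxcl10 was 73.0, 76.4 and 71.2 times the level of Cxcl9 in Gsdmd-/- samples, against 107, 110 and 109 times in WT samples. The lowest WT ratio was above the highest Gsdmd-/- ratio. This ratio was not among the planned results and restates the changes of its ligands, so its lack of overlap is no test. For single genes the groups did not overlap in 79.4% of those tested.

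Among the neutrophil-attracting ligands, Cxcl2 and Cxcl3 fell while Cxcl1 rose. Cxcl2, the most abundant of them, had 54.0, 51.2 and 54.1 FPKM in Gsdmd-/- samples, against 67.1, 70.6 and 63.9 FPKM in WT samples. Each Gsdmd-/- sample was below each WT sample. The mean was 0.790 of the WT mean, with a log2 change of -0.33 (SE 0.041, limma adjusted p = 1.24e-05). It lay -0.38 from the median of all genes in TPM, and stayed past the threshold there (-0.56) and on the adjusted scale (-0.27).

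Cxcl3 had 6.41, 5.12 and 6.33 FPKM in Gsdmd-/- samples, against 11.8, 9.37 and 10.6 FPKM in WT samples. The groups did not overlap, and the largest relative decrease of the 8 ligands was this one, to 0.562 of the WT mean. The log2 change was -0.74 (SE 0.090, limma adjusted p = 1.71e-05), and 6.65% of all tested genes had a change that low or lower. About 101 to 126 fragments in Gsdmd-/- and 182 to 231 in WT samples lie behind these values. In WT, replicate 2 was the lowest for Cxcl3 and the highest for Cxcl2, and in Gsdmd-/-, replicate 2 was the lowest for both. Transcripts of Cxcl2 and Cxcl3 share an identical run of 110 bases, so reads from one could have been counted for the other, and their separate values are uncertain to that extent.

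Cxcl1 had 4.03, 4.54 and 4.44 FPKM in Gsdmd-/- samples, against 2.71, 2.71 and 2.88 FPKM in WT samples. It was low in all samples, at an estimated 74 to 84 fragments in Gsdmd-/- and 49 to 53 in WT samples. For 74 fragments the exact 95% Poisson interval is 58.1 to 92.9 and for 53 it is 39.7 to 69.3, so single samples of the 2 groups overlap in counting error. Over the 3 samples a side, the mean was 1.57 times the WT mean, with a log2 change of 0.50 (SE 0.065, limma adjusted p = 1.96e-05). The change was in the same direction and called in TPM (0.37) and on the adjusted scale (0.35). Cxcl1 has a transcript of 953 bases, and the tested genes of 953 to 1245 bases had a median log2 change of 0.33. The longest run that Cxcl1 shares with Cxcl2 or Cxcl3 is 23 bases.

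Cxcl2 was 13.4, 11.3 and 12.2 times the level of Cxcl1 in Gsdmd-/- samples, against 24.8, 26.1 and 22.2 times in WT samples. The groups did not overlap in this ratio. Cxcl2 was 8.43, 9.99 and 8.54 times the level of Cxcl3 in Gsdmd-/- samples, against 5.70, 7.53 and 6.02 times in WT samples, and there too the groups did not overlap. These ratios too were not among the planned results and restate the changes of single ligands, so their lack of overlap is no test.

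Set against each other, the interferon-induced and the neutrophil-attracting ligands moved apart. The mean log2(FPKM + 1) of Cxcl9 and Cxcl10 was 9.73 ± 0.0093 in Gsdmd-/- and 9.44 ± 0.013 in WT samples, and that of Cxcl1, Cxcl2 and Cxcl3 was 3.66 ± 0.053 in Gsdmd-/- and 3.84 ± 0.039 in WT samples (SD, n = 3 each). The gap between the 2 means was 6.07, 6.13 and 6.02 in Gsdmd-/- samples, against 5.56, 5.64 and 5.59 in WT samples. It was wider by 0.48 on the log2 scale in Gsdmd-/- samples, with a pooled SD of 0.047 between samples. No p is given because the ligands were chosen with results of these data known. The SD is no test either, since the groups did not overlap for 79.4% of all tested genes. The gap was wider by 0.46 in TPM, 0.64 on the adjusted scale and 0.28 after quantile normalization. The changes of Cxcl9 and Cxcl10 were 0.35 and -0.21 in TPM, and 0.47 and -0.26 after quantile normalization. On those 2 scales they partly cancelled, and the first mean rose by less than as deposited. The gap does not describe each ligand: as deposited, the first mean rose through Cxcl9 and not Cxcl10, and Cxcl1 moved against Cxcl2 and Cxcl3. As a single pair, Cxcl9 was at 1.84, 1.88 and 1.84 times the level of Cxcl2 in Gsdmd-/- samples, against 0.998, 0.934 and 1.02 times in WT samples. This pair was picked after the values were seen.

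**Figure D2:**
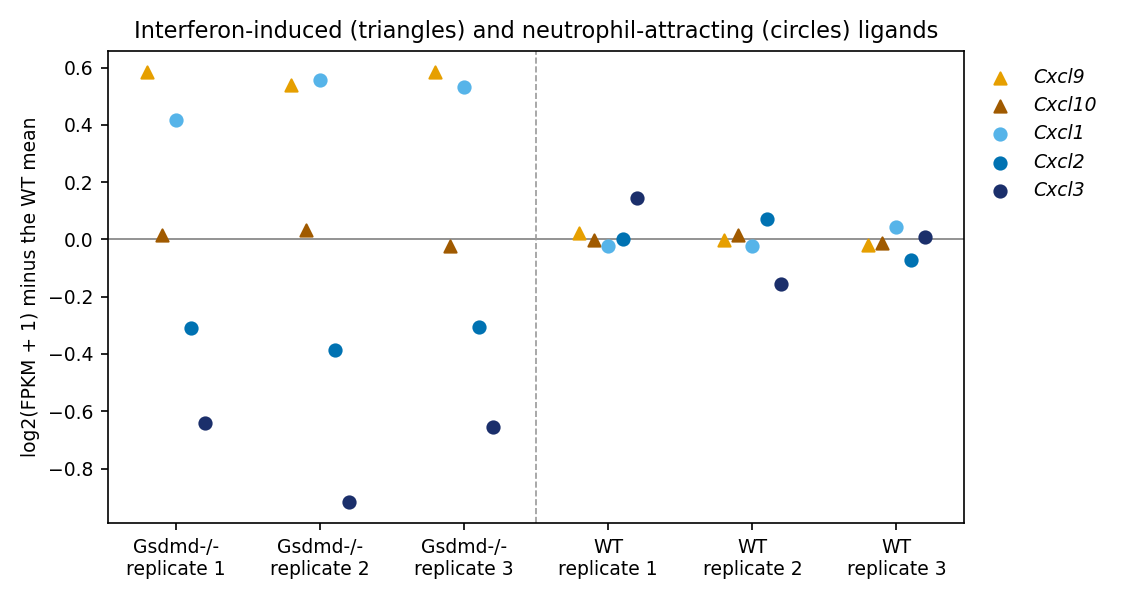
Log2(FPKM + 1) of the 5 interferon-induced (triangles) and neutrophil-attracting (circles) ligands in each sample, minus the mean of the 3 WT samples, with Gsdmd-/- samples on the left. In all 3 Gsdmd-/- samples Cxcl9 and Cxcl1 lie above 0, Cxcl2 and Cxcl3 below it and Cxcl10 near it.

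Some genes called in opposite directions lie in the same stretch of chromosome 5. Pf4 (chromosome 5, positions 90772435 to 90773383 in GRCm38.p6), Cxcl3 (90786101 to 90788093), Cxcl1 (90891245 to 90893121) and Cxcl2 (90903899 to 90905938) are on the plus strand within 134 kb. Cxcl9 (92321331 to 92328079) and Cxcl10 (92346638 to 92348889) are on the minus strand of the same chromosome, with Cxcl11 beyond them, in a stretch of 42.0 kb. Cxcl16 is on chromosome 11 (70454389 to 70459984) and Cxcl14 on chromosome 13 (56288643 to 56296811). Within the first cluster Pf4 and Cxcl1 were called higher and Cxcl3 and Cxcl2 lower as deposited, and on the adjusted scale Cxcl1 alone of the 4 was called higher.

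The 3 neutrophil-attracting ligands moved apart, and the sequences before their start sites are shown beside those of Cxcl9 and Cxcl10, as the 250 bases upstream of each start in RefSeq, build GRCm38.p6, 5′ to 3′ on the gene's strand. The regions are chr5:90890995-90891244 for Cxcl1, chr5:90903649-90903898 for Cxcl2, chr5:90785851-90786100 for Cxcl3, all on the plus strand, and chr5:92328080-92328329 for Cxcl9 and chr5:92348890-92349139 for Cxcl10, both on the minus strand. Capitals mark matches, on either strand, to any of 4 motifs. These are the NF-kB consensus, GGGAATTTCC, which is the match to that consensus that Cxcl1, Cxcl2 and Cxcl3 have in common, a pair of GAAA with 2 bases between them (the core of the interferon-stimulated response element), and TTCNNNGAA (the STAT site of the interferon gamma response).
Cxcl1: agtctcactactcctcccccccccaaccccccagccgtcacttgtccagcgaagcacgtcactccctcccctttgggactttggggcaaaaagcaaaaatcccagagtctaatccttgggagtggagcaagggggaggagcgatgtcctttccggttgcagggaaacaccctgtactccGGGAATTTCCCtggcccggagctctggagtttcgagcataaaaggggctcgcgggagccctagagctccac
Cxcl2: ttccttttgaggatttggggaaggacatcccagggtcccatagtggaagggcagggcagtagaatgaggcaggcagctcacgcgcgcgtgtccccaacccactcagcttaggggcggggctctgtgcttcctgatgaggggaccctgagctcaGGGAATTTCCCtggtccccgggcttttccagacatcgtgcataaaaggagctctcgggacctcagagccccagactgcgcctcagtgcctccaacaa
Cxcl3: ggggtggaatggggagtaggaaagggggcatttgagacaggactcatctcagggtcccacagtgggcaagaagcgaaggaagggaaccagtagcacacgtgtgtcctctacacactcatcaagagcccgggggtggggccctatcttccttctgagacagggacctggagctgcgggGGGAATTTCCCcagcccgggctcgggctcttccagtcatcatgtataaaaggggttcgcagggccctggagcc
Cxcl9: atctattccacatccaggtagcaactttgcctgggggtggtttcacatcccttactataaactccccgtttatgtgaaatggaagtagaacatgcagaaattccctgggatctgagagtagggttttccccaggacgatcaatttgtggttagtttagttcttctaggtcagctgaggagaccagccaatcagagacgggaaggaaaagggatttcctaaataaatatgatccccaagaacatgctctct
Cxcl10: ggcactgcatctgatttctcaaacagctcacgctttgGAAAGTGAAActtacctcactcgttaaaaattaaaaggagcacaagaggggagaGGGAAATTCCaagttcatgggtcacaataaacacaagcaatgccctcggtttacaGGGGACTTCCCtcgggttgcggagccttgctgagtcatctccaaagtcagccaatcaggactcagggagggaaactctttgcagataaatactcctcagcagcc
Cxcl1, Cxcl2 and Cxcl3 each held GGGAATTTCC, at 71 to 62, 97 to 88 and 73 to 64 bases before the start. Of the 32851 promoters in the table, 0.0852% held it in the same 250 bases, and since the letters were taken from these 3 genes their own matches are no test. In each of them a second consensus match, on the other strand, overlaps it, shifted by 1 base. Cxcl10 held GAAAGTGAAA at 213 to 204 bases before the start and 3 matches to the NF-kB consensus, 2 of them overlapping. Among all promoters, 7.25% held the NF-kB consensus, 2.98% the GAAA pair and 7.02% TTCNNNGAA. No motif searched was found in the windows of Cxcl9 and Pf4, while that of Cxcl14 held a GAAA pair and TTCNNNGAA. The table matched 7 of the 9 ligands, without Cxcl11 and Cxcl16. The shared GGGAATTTCC lies before a gene that rose and before the pair of genes that fell.

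Of the remaining ligands, Pf4 rose as deposited and Cxcl16 did not pass. Cxcl14 was called higher, after passing the filter through the Gsdmd-/- samples. Pf4 had 318, 321 and 309 FPKM in Gsdmd-/- samples, against 207, 226 and 208 FPKM in WT samples, and the groups did not overlap. The log2 change was 0.56 (SE 0.035, limma adjusted p = 3.36e-08), and 0.34 in TPM. Pf4 transcripts are short, 499.5 bases on average, and tested genes of 322 to 953 bases had a median log2 change of 0.51. On the adjusted scale the change was -0.06 and did not pass (adjusted p = 0.122), so the direction of Pf4 depended on that step.

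Platelets are the cells best known for Pf4, and their markers were at low levels. The 10 platelet and megakaryocyte markers summed to 10.0 to 11.0 FPKM in Gsdmd-/- and 5.44 to 5.73 FPKM in WT samples, well below Pf4 itself. Ppbp, a platelet CXC ligand, had 6.10, 7.13 and 6.41 FPKM in Gsdmd-/- samples, against 4.24, 4.0 and 3.75 FPKM in WT samples, and rose (log2 change 0.59, limma adjusted p = 7.15e-06). It was also called higher on the adjusted scale (0.55), where Pf4 was not. Treml1, a platelet surface receptor, was at 1.19 FPKM in Gsdmd-/- and 0.260 FPKM in WT samples and passed the filter through the Gsdmd-/- samples alone, so its call is not counted here. Clec1b was at 0.617 FPKM in Gsdmd-/- and 0.613 FPKM in WT samples. Apart from Ppbp and Treml1, the markers stayed under 1 FPKM in every sample. Of these, Itga2b, Gp1bb and Gp5 were higher in every Gsdmd-/- sample than in any WT sample. Clec1b, Gp1ba, Gp6, Gp9 and Tubb1 overlapped between the groups. The part of platelet transcripts in the Pf4 difference was not tested.

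Cxcl14 had 1.95, 2.37 and 1.89 FPKM in Gsdmd-/- samples, against 0.93, 1.37 and 0.88 FPKM in WT samples. It was the lowest of the 8 in every sample, and the groups did not overlap. The log2 change was 0.58 (SE 0.099, limma adjusted p = 0.000191). Because Cxcl14 passed the filter through the Gsdmd-/- samples, that p is not taken as support for a rise. The change was 0.56 in TPM, 0.38 on the adjusted scale, and 0.92 with a pseudocount of 0.1 in place of 1. Fibroblast markers differed too: 10 of 11 had a value and 6 were tested. Of these 6, Col3a1 passed the filter through the Gsdmd-/- samples alone, and the 5 others rose on each scale, beside 40.6% of all tested genes as deposited, 25.0% in TPM and 32.4% on the adjusted scale. The list summed to 47.5 to 49.5 FPKM in Gsdmd-/- and 19.2 to 20.4 FPKM in WT samples. Col1a1, a collagen chain, was at 13.4 ± 0.452 FPKM in Gsdmd-/- and 4.36 ± 0.334 FPKM in WT samples (SD, n = 3 each), Col1a2 at 9.21 FPKM in Gsdmd-/- and 4.10 FPKM in WT samples, and Dcn, a matrix proteoglycan, at 11.4 FPKM in Gsdmd-/- and 5.38 FPKM in WT samples. Of the markers, 4 stayed under 1 FPKM in all samples, Pdgfra, Pdgfrb, Thy1 and Lum, and Lum was at 0.080 FPKM in Gsdmd-/- and 0.113 FPKM in WT samples. The part of stromal transcripts in the differences of Cxcl14 and of Cxcl1 was not tested.

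Cxcl16 had 246, 235 and 235 FPKM in Gsdmd-/- samples, against 234, 235 and 231 FPKM in WT samples. The groups overlapped, and the log2 change was 0.03 (95% interval -0.03 to 0.09, limma adjusted p = 0.318). The scale decided its sign: it was -0.19 in TPM, where it passed and lay -0.02 from the median of all genes, and 0.18 on the adjusted scale, where it also passed. Cxcl16 shares 552 exon bases with Zmynd15 on the other strand, which was at 11.4 ± 0.338 FPKM in Gsdmd-/- and 9.09 ± 0.316 FPKM in WT samples, and whether counting used strand is not given in the sources used here.

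**Figure D3:**
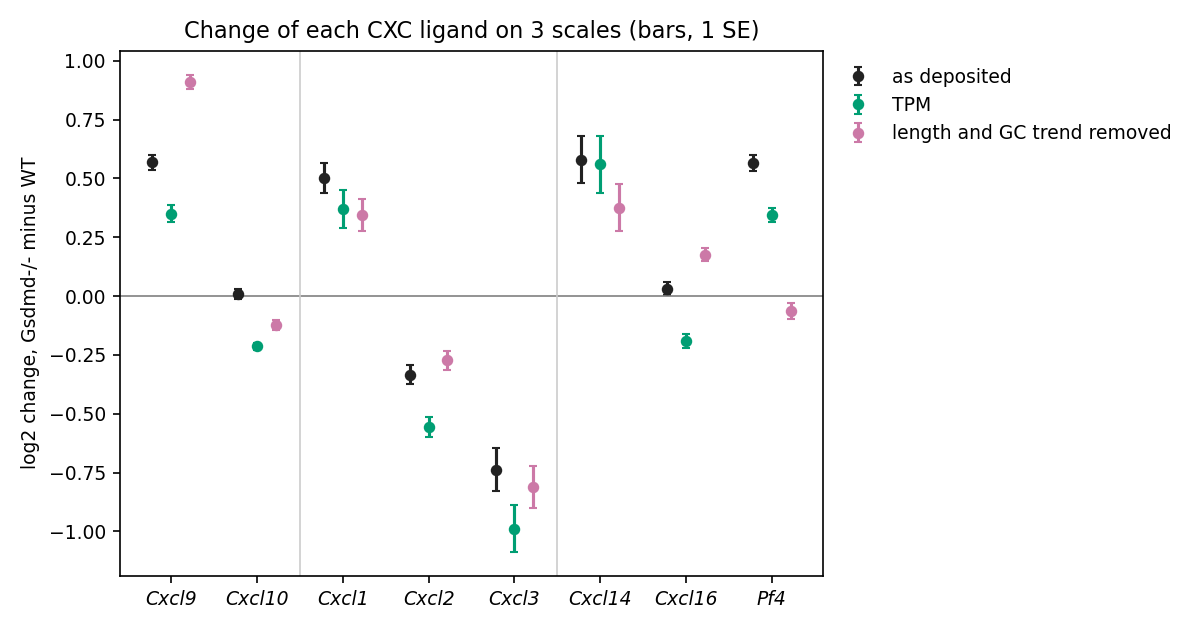
Log2 change of each CXC ligand, Gsdmd-/- minus WT, on the deposited scale, in TPM and adjusted for transcript length and GC content, with bars of 1 SE. Cxcl1, Cxcl9 and Cxcl14 lie above 0 and Cxcl2 and Cxcl3 below it on all 3 scales, while Cxcl10, Cxcl16 and Pf4 change sign between them.

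Enzymes that act on these ligands also differed. Adam10 and Adam17, the membrane proteases that release Cxcl16 from the cell surface, both fell. Adam10 had 21.45, 22.4 and 24 FPKM in Gsdmd-/- samples, against 44.8, 41.6 and 42.9 FPKM in WT samples (log2 change -0.90, limma adjusted p = 9.79e-09), and Adam17 averaged 56.7 ± 2.11 FPKM in Gsdmd-/- and 88.0 ± 2.96 FPKM in WT samples (log2 change -0.62). The ranges did not overlap for either protease, while Cxcl16 itself overlapped. Mmp9, a gelatinase that trims several CXC ligands, rose to 3.43 ± 0.058 FPKM in Gsdmd-/-, against 1.56 ± 0.067 FPKM in WT samples, and the aminopeptidase Anpep fell by 0.27 on the log2 scale. These 4 directions held in TPM and on the adjusted scale. Of 7 tested genes of ligand processing, 4 rose and 3 fell, beside 40.6% and 36.9% of all genes, and in TPM 2 rose and 4 fell, beside 25.0% and 51.0%.

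The receptors were little expressed. Of 8 CXC receptors, 7 had a value and 2 were tested. Cxcr2, the receptor of Cxcl1, Cxcl2 and Cxcl3, had 3.61, 3.46 and 2.77 FPKM in Gsdmd-/- samples, against 2.59, 2.53 and 2.06 FPKM in WT samples (log2 change 0.33, limma adjusted p = 0.00542), and it did not pass in TPM (0.19). Cxcr4, the receptor of Cxcl12, fell to 6.46 ± 0.140 FPKM in Gsdmd-/-, against 7.80 ± 0.323 FPKM in WT samples. Cxcr3, the receptor of Cxcl9 and Cxcl10, was at 0.503 FPKM in Gsdmd-/- and 0.387 FPKM in WT samples, and Cxcr6, the receptor of Cxcl16, at 0.050 FPKM in Gsdmd-/- and 0.080 FPKM in WT samples, both too low to be tested.

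Upstream of Cxcl9 and Cxcl10, the genes of interferon signalling moved both ways. Of 17 tested genes 6 rose and 8 fell, beside 40.6% and 36.9% of all genes, with a median log2 change of -0.06. In TPM 3 rose and 11 fell, beside 25.0% and 51.0% of all genes, and on the adjusted scale 4 rose and 6 fell, beside 32.4% and 30.3%. Ifnb1, the gene of interferon beta, had 198, 189 and 191 FPKM in Gsdmd-/- samples, against 87.4, 80.9 and 86.6 FPKM in WT samples (log2 change 1.17, limma adjusted p = 4.05e-10). Irf7, a transcription factor of the type I interferon response, rose by 0.50, while the receptor-bound kinases Jak1 and Jak2 fell by 0.59 and 0.61 on the log2 scale. All 4 kept their direction on each scale. Ifng, the gene of interferon gamma, was at 0.150 FPKM in Gsdmd-/- and 0.013 FPKM in WT samples, too low to be tested.

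Upstream of Cxcl1, Cxcl2 and Cxcl3, genes of interleukin-1, interleukin-17, Toll-like receptor and NF-kB signalling moved both ways. Of 26 tested genes 9 rose and 14 fell, beside 40.6% and 36.9% of all genes, with a median log2 change of -0.16. In TPM 5 rose and 19 fell, beside 25.0% and 51.0% of all genes, and on the adjusted scale 4 rose and 14 fell, beside 32.4% and 30.3%. Rel, a subunit of NF-kB, had 8.78, 9.53 and 9.57 FPKM in Gsdmd-/- samples, against 27.6, 25.02 and 25.8 FPKM in WT samples (log2 change -1.40, limma adjusted p = 1.27e-09). The endotoxin receptor gene Tlr4 fell by 1.0, Nfkbiz, a nuclear cofactor of NF-kB, by 0.66 and Il1b, the gene of interleukin-1 beta, by 0.55 on the log2 scale. On the adjusted scale these were -0.74 for Rel, -0.59 for Tlr4, -0.38 for Nfkbiz and -0.59 for Il1b. These genes were named for the smallest p of the list, and all of them are among the 14 that fell. Of the other NF-kB subunits, as deposited, Nfkb1 fell by 0.57. Rela, Relb and Nfkb2 rose by 0.42, 0.41 and 0.11 on the log2 scale.

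Genes that control the stability of chemokine mRNAs fell in part. Of 10 tested, 1 rose and 6 fell, beside 40.6% and 36.9% of all genes, with a median log2 change of -0.21. In TPM 0 rose and 9 fell, beside 25.0% and 51.0% of all genes, and on the adjusted scale 2 rose and 5 fell, beside 32.4% and 30.3%. Zfp36l2, of the tristetraprolin family that binds AU-rich elements, had 31.1, 32.0 and 33.4 FPKM in Gsdmd-/- samples, against 65.8, 64.4 and 65.5 FPKM in WT samples (log2 change -1.0, limma adjusted p = 1.14e-09). Its relative Zfp36l1 fell by 0.72, and Cnot7 and Cnot1 of the deadenylase complex fell by 0.68 and 0.61 on the log2 scale. On the adjusted scale Cnot1 was -0.10 and did not pass (adjusted p = 0.111).

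**Figure D4:**
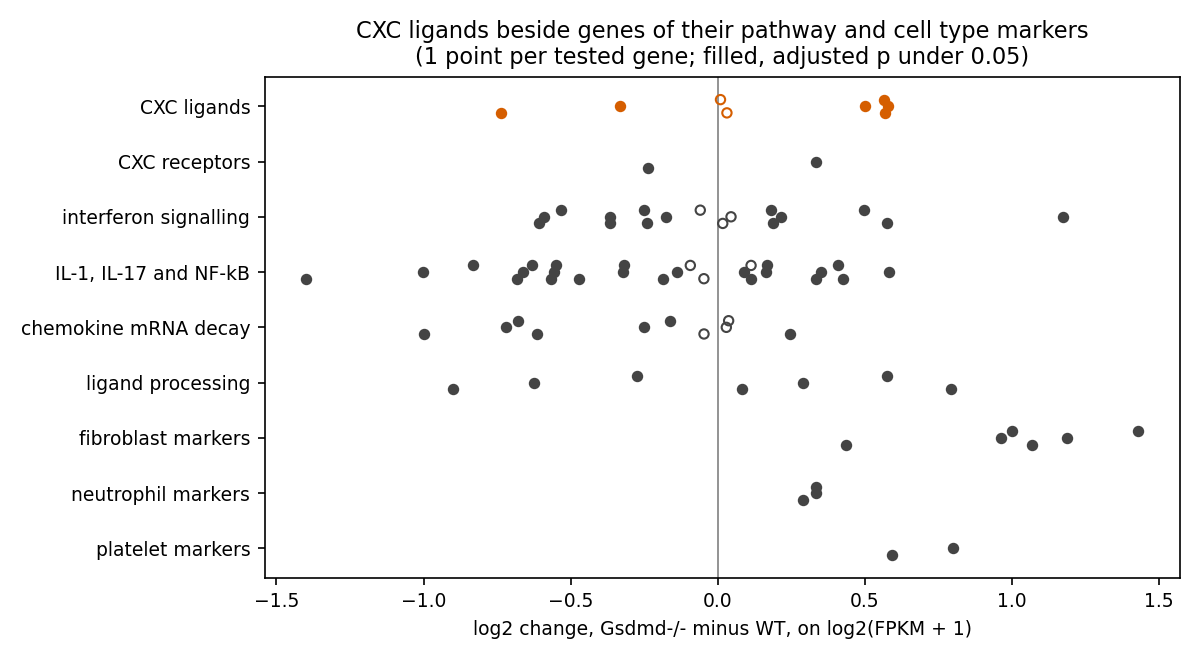
Log2 change, Gsdmd-/- minus WT, of each tested CXC ligand (orange) and of the tested genes of its receptors, pathways and cell type markers (grey), with 1 point per gene, filled where the limma adjusted p was under 0.05. The ligands run from -0.74 to 0.58. Cxcl14 of the ligands, Col3a1 of the fibroblast and Treml1 of the platelet markers passed the filter through their Gsdmd-/- levels.

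Markers of other cells that make or answer CXC ligands were summed in each sample. Neutrophil markers summed to 47.0 to 51.1 FPKM in Gsdmd-/- and 36.4 to 40.4 FPKM in WT samples, mostly Csf3r at 37.5 FPKM in Gsdmd-/- and 29.6 FPKM in WT samples, with Mmp8 at 6.17 FPKM in Gsdmd-/- and 4.87 FPKM in WT samples. All 3 tested neutrophil markers, Csf3r, Mmp8 and Cxcr2, rose, beside 40.6% of all tested genes, and 1 of the 3 did in TPM, beside 25.0%. On the adjusted scale all 3 were called higher, beside 32.4%. The defining genes S100a8, S100a9 and Ly6g averaged 1.19, 0.60 and 0 FPKM in Gsdmd-/- and 0.417, 0.370 and 0.020 FPKM in WT samples. Epithelial markers summed to 1.80 to 2.14 FPKM in Gsdmd-/- and 3.01 to 3.48 FPKM in WT samples, nearly all of it Cdh1. Markers of T and natural killer cells summed to 2.76 to 3.07 FPKM in Gsdmd-/- and 1.64 to 1.91 FPKM in WT samples. Most of that was Cd4, at 2.41 FPKM in Gsdmd-/- and 1.38 FPKM in WT samples. Cd3d and Cd3e averaged 0.050 and 0.020 FPKM in Gsdmd-/- and 0.027 and 0.010 FPKM in WT samples. Cd8a was at 0.207 FPKM in Gsdmd-/- and 0.287 FPKM in WT samples. B and plasma cell markers summed to under 1 FPKM in all samples. Endothelial markers summed to 35.0 to 40.9 FPKM in Gsdmd-/- and 62.8 to 67.1 FPKM in WT samples. That difference lies in Kdr, at 26.2 FPKM in Gsdmd-/- and 56.4 FPKM in WT samples, while Pecam1 (0.860 FPKM in Gsdmd-/- and 0.363 FPKM in WT samples), Emcn, Tie1 and Plvap were higher in every Gsdmd-/- sample than in any WT sample. Those 4 were picked after their values were seen, and of them Plvap alone was tested, having passed the filter through the Gsdmd-/- samples. Dendritic cell markers summed to 8.86 to 9.77 FPKM in Gsdmd-/- and 6.81 to 7.80 FPKM in WT samples, mostly Ccr7. The 13 macrophage markers, led by Lyz2, Cd68 and C1qb, summed to 13070 to 13370 FPKM in Gsdmd-/- and 11030 to 11850 FPKM in WT samples. Of the 13, 6 were called higher and 5 lower as deposited, beside 40.6% and 36.9% of all tested genes. In TPM 5 were called higher and 8 lower, beside 25.0% and 51.0%. After quantile normalization 2 were called higher and 6 lower, beside 4098 and 3619 of all 10005 tested genes. On the adjusted scale 1 was called higher and 6 lower, beside 32.4% and 30.3%. Lyz2 was 0.13 as deposited and -0.10 in TPM, past the threshold in both, and Lyz2, Cd68 and C1qb did not pass on the adjusted scale. The part of any of these cells in the differences of Cxcl1, Cxcl2, Cxcl3 and Cxcl9 was not tested.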

How the data were processed

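RNA from 6 samples, 3 Gsdmd-/- and 3 WT by the genotype labels, was sequenced on the BGISEQ-500, per the labels' protocols. Per the submitters' processing notes, Bowtie2 2.2.5 and GRCm38.p6 were used. How reads became gene values, with which annotation and strand setting, is not stated in the labels. The deposited tables hold what the authors computed per gene as FPKM, a unit read from the values: their sums differ between samples, and low values step with transcript length. Depth was estimated from those steps in genes with 1 GENCODE M21 transcript, at transcript length minus 50 bases. The match of low values to whole fragments scored 0.32 to 0.41 at the chosen depth, against 0.25 to 0.33 at the best depth elsewhere. The depth is uncertain to that extent, and so are the fragment numbers. Counting intervals cover counting error only, not the error of the depth.

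Values were tested with limma 3.58.1 (trend and robust settings) in R 4.3.3 on log2(FPKM + 1), Gsdmd-/- minus WT, for 10005 genes with at least 1 FPKM in at least 3 samples. An exact permutation test of 3 against 3 cannot go below p = 0.1, so none is given. The scripts were tested on simulated data. Alternatives were the pseudocount, the filter, TPM, quantile and median ratio scaling, removal of the trend on transcript length and GC content (2 smooth terms, mgcv 1.9.3, for the 98.5% of genes with both), limma settings, a replicate block and leaving out each sample. A joint surface on length and GC was added after seeing the data. The ligands and gene lists were chosen with earlier results of these data known. Genes named are all ligands, Gsdmd, the sorting markers, up to 4 tested genes of each pathway list with the smallest p, and the 3 most abundant markers of each cell type. Others named for low levels, and the NF-kB subunits besides Rel, were picked after their values were seen.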

Additional observations from a re-analysis of the deposited data

How the results depend on the processing

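Cxcl1, Cxcl2, Cxcl3, Cxcl9 and Cxcl14 kept their direction and stayed past the threshold under every alternative that could be fitted. With the filter of 5 FPKM, Cxcl1 and Cxcl14 were not tested, and at 1 FPKM Cxcl14 passed through its Gsdmd-/- samples. The 3 others depended on the scale. Cxcl10 was -0.21 in TPM, -0.26 after quantile normalization, -0.028 with median ratio scaling, -0.12 with the length and GC trend removed and -0.15 with the joint trend, which was chosen after seeing the data. Cxcl16 was -0.19 in TPM, -0.15 after quantile normalization, -0.0065 with median ratio scaling, 0.18 with the trend removed and 0.18 with the joint trend. Pf4 was -0.064 with the trend removed and -0.068 with the joint trend, and did not pass in either. The gap between interferon-induced and neutrophil-attracting ligands was 0.28 after quantile normalization, 0.64 with the trend removed and 0.65 with the joint trend. Genes called higher numbered 2498 in TPM, against 4059 as deposited. The causes of these shifts were not tested.

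Leaving out 1 sample at a time gave log2 changes of 0.47 to 0.54 for Cxcl1, -0.37 to -0.30 for Cxcl2, -0.81 to -0.65 for Cxcl3, 0.56 to 0.58 for Cxcl9, -0.0033 to 0.025 for Cxcl10, 0.51 to 0.69 for Cxcl14, 0.0094 to 0.043 for Cxcl16 and 0.54 to 0.60 for Pf4, and gaps of 0.45 to 0.50. Deviations of samples with the same replicate number correlated at -0.082, 0.132 and 0.014, so no strong effect shared by number was seen. Such correlations cannot exclude a pairing with a weak effect. With the replicate block, 4095 genes were called higher and 3706 lower, and no ligand's call changed. Depth limits Cxcl14 and Cxcl1 most, at an estimated 29 to 84 fragments a sample.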
